A study of Rattus norvegicus with 12 samples.

Results

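Ventricular cardiomyocytes of newborn rats that had been stretched for 24 h were compared with the same cells stretched for 6 h, 3 arrays against 3, which is 6 of the 12 arrays of the study. The arrays were taken by their labels, and the comparison covered every named gene above background, 12402 genes in all. In both groups, cells plated on collagen-coated silicone membranes were kept for 24 h in medium with 10% fetal calf serum and then stretched along both axes in pulses with 20% elongation. Unstretched cells (3 arrays) and cells stretched for 2 h (3 arrays) complete the study and enter the fit, where they share the estimate of spread, and are otherwise used to place the levels. The labels call the 3 samples of a group biological replicates. They do not say whether these came from separate isolations of hearts, so n = 3 and every p-value refer to the spread between these samples. Cells at 24 h had also been in culture for longer than cells at 6 h, and the labels give no unstretched culture matched to either time, so the time under stretch and the time in culture cannot be told apart.

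Cardiomyocytes respond to mechanical load with a sequence of transcriptional changes that is well known as background. Within hours they induce immediate-early transcription factors, then natriuretic peptides and proteins of the Z-disc and the costamere, and under lasting load they tend to reduce genes of calcium cycling, repolarising potassium currents and fatty-acid oxidation. Cultures of neonatal heart cells are not pure, and fibroblasts, endothelial cells, smooth muscle cells and macrophages usually remain among the myocytes.

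RNA was labelled with the dye Cy3 and read on 1-colour Agilent rat arrays. Levels are given as scaled intensity, the array's processed signal after every array was brought to the same 75th percentile. Changes are log2 values, 24 h minus 6 h, with the standard error of the linear model. Genes are described as called where the adjusted p was under 0.05. Over the 12 arrays the 75th percentile of the signal before scaling lay between 1142 and 1671, 64.7% to 70.6% of spots stood well above background, and saturation affected 0 spots. The arrays lay on 2 slides, each with its own scan. Slide 2 held the 3 arrays of 24 h and 1 array of 6 h (replicate 3), and the other 2 arrays of 6 h were on slide 1 with all controls and all 2 h arrays. Most of the comparison therefore crosses slides. Fitting the slide as a block leaves the 24 h arrays against the 1 array of 6 h on the same slide. The block value is therefore also the one within slide 2. Block counts, block medians or both are given for each list. For most named genes whose call the block ends, only that loss is stated. A lost call does not show that the change is absent within slide 2, where 1 array of 6 h remains. With the block the change of Cd14 went from -0.32 to -0.37, and that of Ryr2 from -0.34 to -0.20. Only the 6 h group lies on both slides, so the slide term compares its replicate 3 with its other 2 arrays. With so few arrays, a low count for this term cannot show that the slide had no effect. The slide term itself passed an adjusted p below 0.05 for 1 of 12402 genes (0.00806%), and for 452 at an unadjusted p below 0.05.

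All 13 listed cardiomyocyte markers were above background. Of these, 9 fell and 2 rose, against 16.4% of all genes called lower and 10.6% called higher, with a median change of -0.26. With the slide as a block 1 fell and 1 rose, with a median of -0.20, so that most of these calls were lost. Their summed scaled intensity was 1207528, 1117992 and 1168855 at 24 h, against 1287605, 1326799 and 1265524 at 6 h. The sum includes Nppa, whose mean rose from 56998 at 6 h to 97695 at 24 h. Markers of the other cell types in the cultures were above background as well, with 17 of 20 for macrophages and leukocytes, 14 of 14 for fibroblasts, 12 of 15 for endothelial cells, 13 of 13 for smooth muscle and pericytes, 11 of 12 for epicardial and mesothelial cells, 9 of 14 for neural and Schwann cells and 3 of 11 for red blood cells. In such mixed samples, fewer cells of a type and less RNA per cell cannot be told apart.

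Of the 12402 genes, 3351 were called (27.0%), 1319 higher at 24 h (10.6%) and 2032 lower (16.4%). The shares of 10.6% and 16.4% are the ones to set beside the count of each list below. At 2-fold or more there were 196 called genes (1.58%), of which 28 were higher (0.226%) and 168 lower (1.35%). With the slide as a block 1075 genes were called (8.67%), 313 higher and 762 lower, and 346 were called on slide 2 alone (2.79%). In 5862 genes (47.3%) the 3 arrays of 24 h did not overlap with the 3 of 6 h. The median change over all genes was -0.02. The balance of directions depended on the scaling. Of the called genes 39.4% were higher with the 75th percentile and 53.9% with quantile normalization. The share was 70.7% with scaling to the array median and 14.9% with scaling to the spike-in controls. No gene called with the 75th percentile had the opposite sign under any of the other 3. Scaling to the array median or to the spike-in controls moves the change of every gene by the same amount. The kept signs under those scalings are therefore no separate check.

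**Figure D1:**
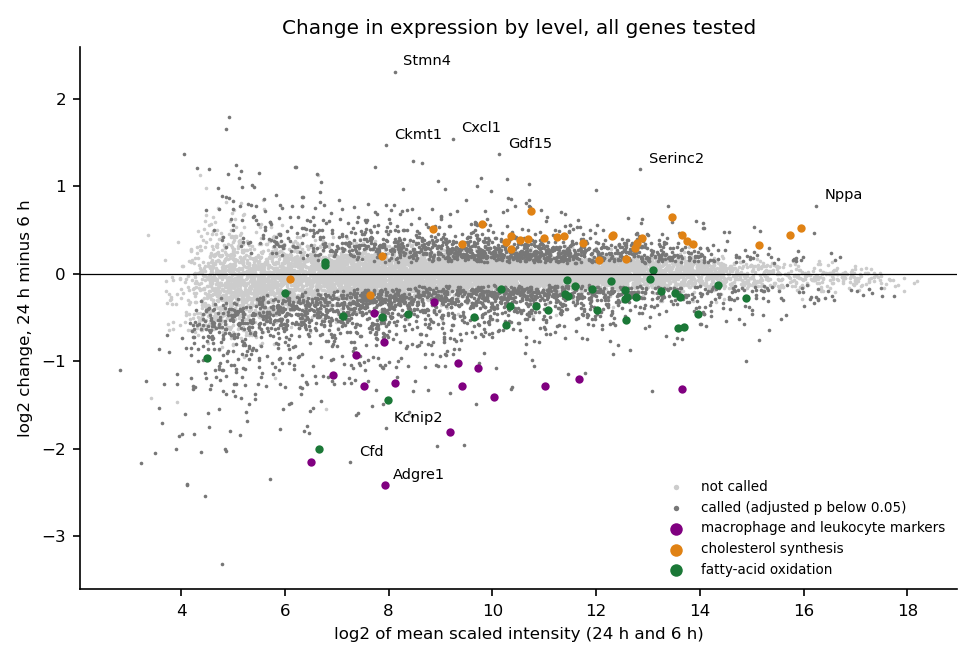
The log2 change in expression (24 h minus 6 h, vertical axis) is plotted against the log2 of the mean scaled intensity of both groups for the 12402 genes tested, with called genes in dark grey. The 17 macrophage and leukocyte markers (purple) all lie below 0, 28 of 30 cholesterol synthesis genes (orange) lie above 0, and 34 of 37 fatty-acid oxidation genes (green) lie below 0.

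Among called genes above background on all 6 arrays and without overlap between the groups, Stmn4 had the largest rise. It is a neuronal member of the stathmin family of proteins that destabilise microtubules. Its scaled intensity was 449.8, 464 and 469.8 on the 24 h arrays, against 101, 63.3 and 126 on the 6 h arrays. The 24 h arrays lay close together, far above all 6 h arrays, and the change was 2.31 ± 0.22 (adjusted p = 3.83e-05; 1.87 with the slide as a block). Cxcl1, a chemokine that draws neutrophils, read 680.5, 1247 and 794 at 24 h, against 298, 265 and 343 at 6 h. Replicate 2 of 24 h stood above the other two, but the lowest was still well over the highest 6 h array, with a change of 1.54 ± 0.22 (adjusted p = 0.000512). Gdf15, a secreted stress-induced member of the TGF-beta superfamily, read 1774, 1546 and 1526 at 24 h, against 572, 578 and 743 at 6 h. The change was 1.36 ± 0.11 (adjusted p = 1.66e-05). Serinc2, of a family of membrane proteins named as serine incorporators, had the smallest standard error of the 12 genes with the largest rise, 10139, 10305 and 10430.0 at 24 h, against 4560.1, 4474 and 4427 at 6 h, a change of 1.20 ± 0.04 (adjusted p = 1.36e-07).

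The other 8 of these 12 genes rose by 1.47 (Ckmt1, ubiquitous mitochondrial creatine kinase), 1.29 (Sypl2, a synaptophysin-like membrane protein of skeletal muscle triads), 1.26 (Slc4a11, a transporter of the bicarbonate-transporter family), 1.22 (Isg15, a ubiquitin-like protein induced by interferon), 1.22 (Rundc3a, with 0.22 at another probe), 1.21 (Fbxo17, an F-box protein), 1.14 (F2rl1, the protease-activated receptor PAR2) and 1.09 (Sfnl1). The 12 were chosen among genes whose 3 arrays of 24 h did not overlap with the 3 arrays of 6 h. Their lack of overlap is thus fixed by the choice. All 12 were still called with the slide as a block.

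A further 3 genes were above background on all 24 h arrays and on none of the 6 h arrays, so that only a bound can be given for their rise. Hs3st2, a heparan sulfate sulfotransferase, was at least 2.23-fold higher at 24 h, Proca1 at least 1.46-fold higher, and Spdef, an ETS-family transcription factor of epithelia, at least 1.31-fold higher. Their adjusted p-values were 0.00398, 0.0365 and 0.0086. The background filter can keep a gene through 1 group alone, here the 24 h arrays. These p-values are therefore no separate support for a rise. The calls of Hs3st2 and Proca1 were lost with the slide as a block. Without the filter on dim probes another probe stood for Spdef, with a change of -0.35 that was not called (adjusted p = 0.523).

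Among called genes above background on all 6 arrays and without overlap, Adgre1, which encodes the macrophage surface protein F4/80, had the largest fall. It read 83.9, 70.6 and 75.2 at 24 h, against 384, 459 and 386 at 6 h. Every 24 h array was thus far below every 6 h array, with a change of -2.42 ± 0.08 (adjusted p = 1.36e-07; -2.34 with the slide as a block). Cfd, which encodes the complement protease factor D or adipsin, read 52.5, 64.8 and 52.2 at 24 h, against 248, 260.3 and 244 at 6 h, a change of -2.16 ± 0.10 (adjusted p = 4.55e-07). Kcnip2, whose product KChIP2 is the accessory subunit of the channels of the transient outward potassium current, read 108, 136 and 93.3 at 24 h, against 391, 404 and 344 at 6 h. The change of Kcnip2 was -1.77 ± 0.15 (adjusted p = 1.44e-05).

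Of the 12 genes with the largest fall, 8 more were C1qa, a chain of complement C1q (-2.16), Fcrl2, an Fc receptor-like gene (-1.97), Trem2, a lipid-sensing receptor of myeloid cells (-1.96), Slamf9, of the SLAM family of immune receptors (-1.82), Aif1, which encodes the macrophage protein IBA1 (-1.81), and LOC690097 (-1.79), LOC690948 (-1.77) and Igsf7 l1 (-1.74), for which no role is given here. All 12 were called with the slide as a block. Another 3 are named from genes below background on every 24 h array and above it on every 6 h array. Gpr18, a G-protein-coupled receptor, was at least 2.71-fold lower at 24 h and RT1-Bb, an MHC class II beta chain, at least 2.43-fold lower. Ms4a6b, of a family of membrane proteins of leukocytes, was at least 1.91-fold lower. Their adjusted p-values were 0.000781, 9.92e-05 and 5.18e-07. The filter can keep such genes through their 6 h arrays alone, so these p-values are no separate support for a fall. These 3 calls also held with the slide as a block.

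**Figure D2:**
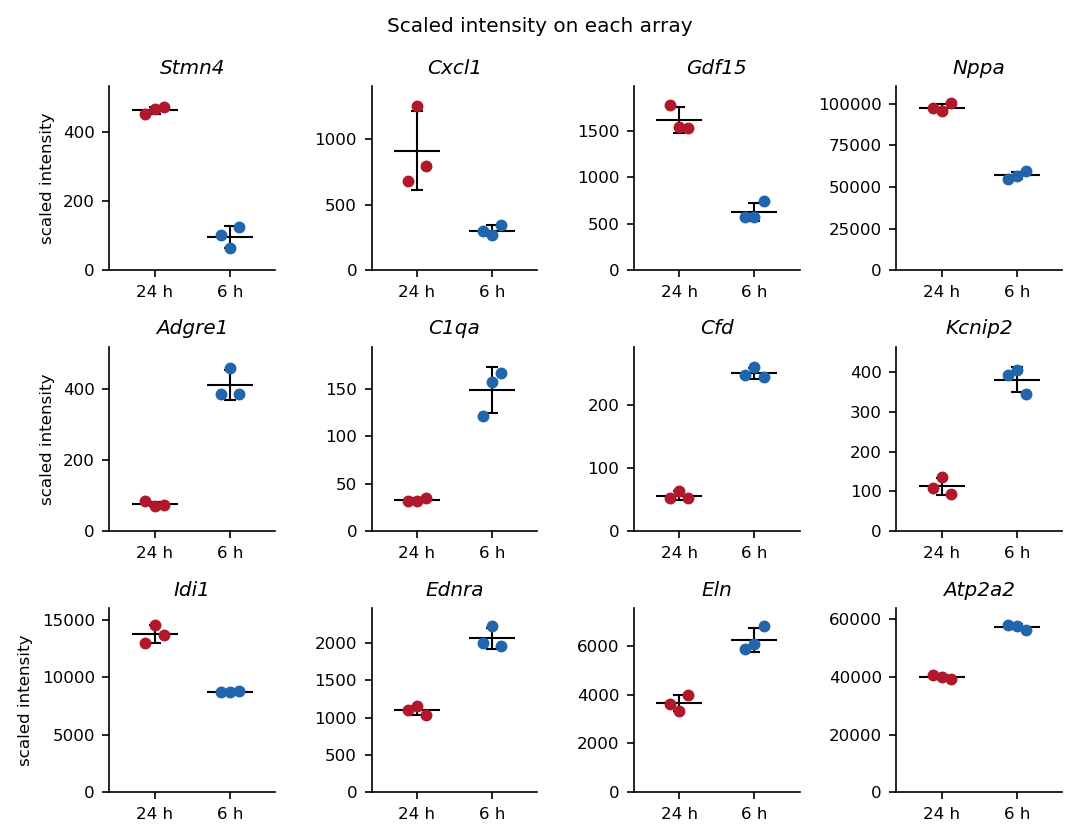
Scaled intensity on each array is shown for 12 genes, with the 3 arrays of 24 h (red) left of the 3 arrays of 6 h (blue); the wide line is the mean, the bars are the SD (n = 3), and each axis starts at 0. The groups do not overlap in any of the 12 genes. Stmn4, Cxcl1, Gdf15, Adgre1, C1qa, Cfd and Kcnip2 were chosen among genes without overlap. For Stmn4 the lowest 24 h value, 449.8, is far above the highest 6 h value, 126.

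Among markers of hypertrophy and stretch, 13 of 22 tested genes rose and 4 fell (23 listed), with a median change of 0.40. With the slide as a block 9 rose and 1 fell, with a median of 0.33. Nppa, which encodes atrial natriuretic peptide, read 97514, 95443 and 100129 at 24 h, against 54816, 56843 and 59336 at 6 h, a change of 0.78 ± 0.06 (adjusted p = 1.02e-05). Nppb, which encodes B-type natriuretic peptide, had a smaller change, 102508, 110878 and 91966 at 24 h, against 85451, 84801 and 89149 at 6 h. Its change of 0.23 ± 0.08 passed narrowly (adjusted p = 0.0467) and was not called with the slide as a block (0.19).

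Several members that rose encode proteins of the Z-disc, the intercalated disc or the actin cytoskeleton. Xirp2, an actin-binding Xin repeat protein of intercalated discs, changed by 0.76 ± 0.15, Enah, a regulator of actin filament elongation, by 0.73 ± 0.07, Fhl1, a LIM protein of the sarcomere, by 0.53 ± 0.06 and Csrp3, the muscle LIM protein, by 0.47 ± 0.05. Rcan1, an inhibitor of calcineurin that is itself a calcineurin target, read 20347, 22114 and 19063 at 24 h, against 14639, 13969.5 and 14270.3 at 6 h, a change of 0.52 ± 0.07 (adjusted p = 0.000245). Mybpc2, the fast-type myosin-binding protein C, changed by 0.78 ± 0.06. The call of Xirp2 was lost with the slide as a block.

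Not all markers of the list rose. Acta1, skeletal alpha-actin, fell to 12986, 13656 and 13064 at 24 h, against 16859, 16438 and 15123 at 6 h (-0.29 ± 0.07, adjusted p = 0.0101), and lost its call with the slide as a block. Stc1, the secreted glycoprotein stanniocalcin 1, fell by a larger step (-0.77 ± 0.07), and Cited4, a transcriptional co-regulator, changed by -0.60 ± 0.10 and lost its call with the slide as a block. Ankrd1, a stretch-responsive protein of the titin-based spring, read 131707, 131976 and 125733 at 24 h, against 139053, 129168 and 141977 at 6 h. Its groups overlapped, and the change of -0.07 ± 0.06 did not pass (adjusted p = 0.382), with the sign turning to 0.02 under scaling to the array median.

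Of 24 tested immediate-early genes (27 listed) 14 rose and 1 fell, with a median of 0.22, against 10.6% of all genes called higher. Of the 24 genes 8 rose and 1 fell with the slide as a block, with a median of 0.22. Nr4a3, an orphan nuclear receptor, changed by 0.78 ± 0.09, Fosl1, an AP-1 subunit, by 0.71 ± 0.12, Csrnp1, a nuclear protein induced by serum, by 0.58 ± 0.07 and Myc by 0.56 ± 0.08. Another probe of Csrnp1 gave a smaller rise (0.26). Atf3, a stress-induced transcription factor, read 3578, 4034 and 2768 at 24 h, against 2306, 2284 and 2387 at 6 h. Its change of 0.56 ± 0.11 was called (adjusted p = 0.00432), but not with the slide as a block, and the same holds for Egr1 (0.37 ± 0.10, adjusted p = 0.0233). Fos read 282, 342 and 289.7 at 24 h, against 279.6, 278 and 295 at 6 h, with overlapping groups and a change of 0.09 ± 0.11 (adjusted p = 0.55). Srf, the serum response factor through which many of these genes are induced, was the member that fell (-0.32 ± 0.05, adjusted p = 0.000719).

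The list in which the largest share of members rose was cholesterol synthesis, in which all 30 listed genes were tested, 26 rose and 0 fell. The median change was 0.39 and ranged between 0.34 and 0.49 over the settings run, and with the slide as a block 19 rose, with a median of 0.37. Cholesterol is made from acetyl-CoA in a chain of enzymes whose genes are switched on together by the transcription factors SREBP1 and SREBP2, which are held back when sterols are plentiful. Genes of early and of later steps rose. Idi1, the isopentenyl-diphosphate isomerase, read 12970.0, 14548 and 13681 at 24 h, against 8739, 8763 and 8797 at 6 h (0.65 ± 0.06, adjusted p = 3.83e-05). No 24 h array of Idi1 was as low as any 6 h array. Against the unstretched controls the median of the list was -0.17 at 6 h and 0.18 at 24 h. By its median the list thus lay below the controls at 6 h and above them at 24 h.

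Enzymes of later steps were among them. Msmo1, a sterol methyl oxidase, changed by 0.52 ± 0.05, Hsd17b7, a keto-reductase of the same demethylation step, by 0.57 ± 0.07 and Sqle, squalene epoxidase, by 0.38 ± 0.05. The list is not limited to enzymes of the cholesterol chain. It also holds genes of fatty-acid synthesis and desaturation, such as Acaca and Scd, and regulators such as Srebf1. Scd, the stearoyl-CoA desaturase, had the largest rise of the list (0.72 ± 0.08). Scd read 2199, 1920.2 and 2263 at 24 h, against 1225, 1213 and 1447 at 6 h, and its mean in unstretched cells was 2051. Srebf1, which encodes SREBP1, changed by 0.43 ± 0.06. Acaca, acetyl-CoA carboxylase, and Srebf2, which encodes SREBP2, were among the 4 genes that did not pass (-0.07 ± 0.10 and 0.16 ± 0.06).

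Promoter windows were looked up for this list because its members moved together. RefSeq (build GRCr8) windows from 250 bases before to 50 bases after the start were given for 20 of the 30 genes. Both strands were searched for 8 motifs. The sterol element was searched only as the pattern TCACNCCAC, and other forms of it were not searched. This pattern was in 0 of the 20 windows, and in 310 of all 27457 windows (1.13%). The NFY box CCAAT was in 16 of the 20 windows (80.0%), in 37.7% of all windows and in 38.2% of the 9586 windows of tested genes. It was in 6 of 7 windows (85.7%) of the MHC class II list, in which 6 genes fell. Of the other motifs, the antioxidant response element TGACNNNGC was in 5 (25.0%, against 12.2% of all windows and 14.8% of those of tested genes), the AP-1 site TGANTCA in 2 (10.0%, against 7.33% and 4.96%) and the E-box CACGTG in 2 (10.0%, against 6.65% and 9.48%). The interferon-stimulated response element (3.77% of all windows), the heat-shock element (0.736%) and the cyclic AMP response element TGACGTCA (1.91%) were in 0 of the 20. TGANTCA and TGACNNNGC can overlap, and each was counted on its own. A match describes the letters only.

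Stretches before the start are shown for the 4 called genes of the list with the largest rise among those with a CCAAT box there. This box was taken because it was the motif most of the list held. The choice was made after the matches were seen, since no window held the pattern TCACNCCAC. Each is read 5′ to 3′ on the gene's strand, and the capitals mark CCAAT or its reverse complement. In GRCr8 they lie at chr17:66547526-66547650 (Idi1, minus strand), chr13:84722866-84722990 (Hsd17b7, minus strand), chr16:29746880-29747004 (Msmo1, plus strand), chrX:16971287-16971411 (Ebp, plus strand).
Idi1: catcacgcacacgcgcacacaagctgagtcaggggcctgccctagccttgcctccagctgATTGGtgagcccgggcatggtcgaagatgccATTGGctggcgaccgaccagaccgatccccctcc
Hsd17b7: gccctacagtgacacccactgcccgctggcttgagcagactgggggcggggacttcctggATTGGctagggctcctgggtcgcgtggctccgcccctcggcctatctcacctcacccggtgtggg
Msmo1: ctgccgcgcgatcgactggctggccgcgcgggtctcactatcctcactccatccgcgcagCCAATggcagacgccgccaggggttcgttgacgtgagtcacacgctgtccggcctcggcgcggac
Ebp: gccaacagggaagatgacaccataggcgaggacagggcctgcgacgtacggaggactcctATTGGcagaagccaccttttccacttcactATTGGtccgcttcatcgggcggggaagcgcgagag
Idi1 and Ebp, the sterol isomerase (0.44 ± 0.07), each hold 2 boxes in the stretch shown, while Hsd17b7 and Msmo1 hold 1.

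**Figure D3:**
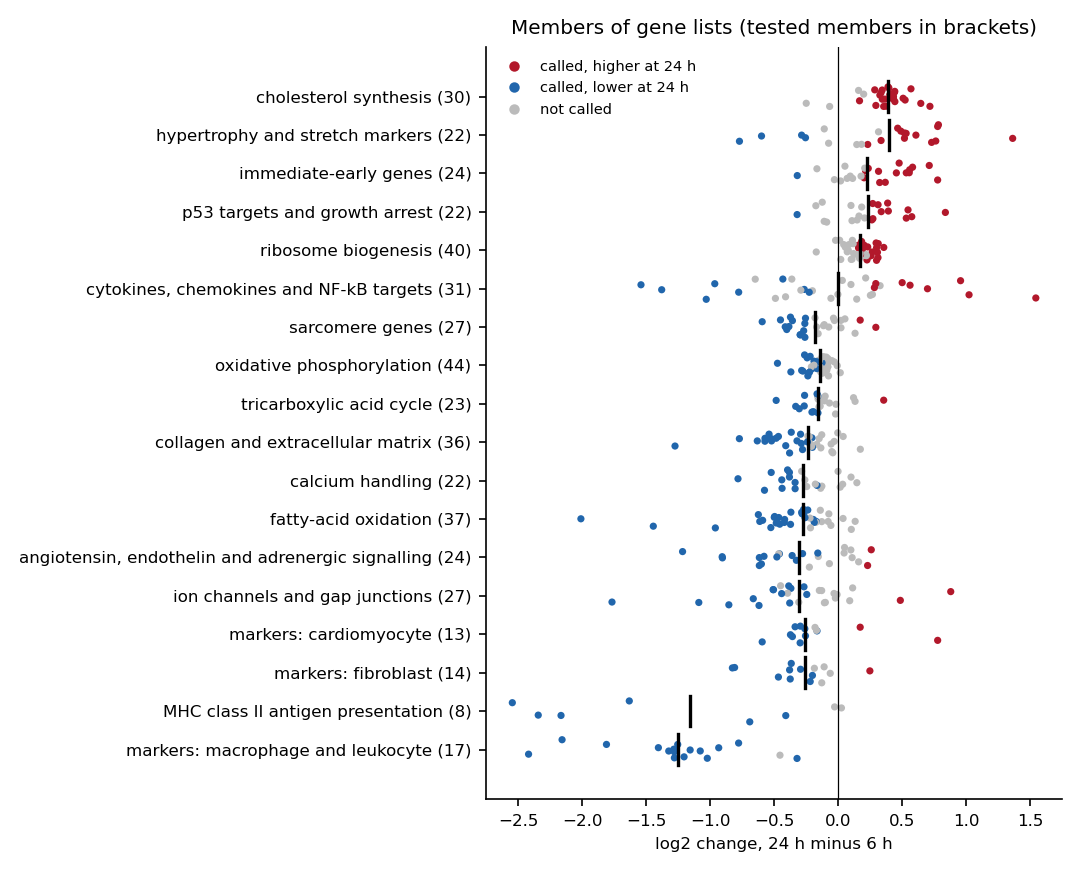
Each dot is 1 tested gene of a list, placed by its log2 change (24 h minus 6 h), and the black bar is the list's median; red dots were called higher at 24 h, blue dots called lower, and grey dots were not called. Cholesterol synthesis lies almost wholly right of 0, with a median of 0.39, and the macrophage and leukocyte markers lie wholly left of 0, with a median of -1.25.

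Ribosome biogenesis genes showed a small shift. Of 40 tested genes (41 listed) 19 rose and 0 fell, with a median of 0.17, and 38 had a positive change. Wdr12, of the complex that processes large-subunit rRNA, changed by 0.36 ± 0.06, Gnl3, nucleostemin, by 0.31 ± 0.07 and Polr1b, the second largest subunit of RNA polymerase I, by 0.31 ± 0.06. With the slide as a block 3 of the 40 were called, Gnl3 and Polr1b not among them, with a median of 0.13. The proteins of the cytosolic ribosome itself gave 0 calls in either direction among 46 tested genes in the limma fit (3 at an unadjusted p below 0.05, and 0 calls with the slide as a block), with a median of -0.04 whose sign turned with the scaling.

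Of 22 tested p53 targets and growth-arrest genes (23 listed) 11 rose and 1 fell, with a median of 0.24. Plk2, a polo-like kinase induced by p53, read 2199, 2377 and 1890.3 at 24 h, against 1196, 1175 and 1229 at 6 h (0.84 ± 0.08, adjusted p = 2.7e-05). Gadd45g, a growth-arrest and DNA-damage protein, changed by 0.58 ± 0.14, Cdkn2b, the cell cycle inhibitor p15, by 0.55 ± 0.07 and Btg2, an anti-proliferative protein, by 0.53 ± 0.07. With the slide as a block 6 rose, and Gadd45g was no longer called. Cdkn1a, the cell cycle inhibitor p21 and a classical p53 target, had a change of -0.12 ± 0.10 and did not pass (adjusted p = 0.387), while another probe of Cdkn1a gave 0.44, so no direction is given for it.

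The list with the lowest median was that of macrophage and leukocyte markers. Of 17 tested markers (20 listed) 16 fell and 0 rose, and the median change was -1.25 (-1.26 with the slide as a block, with 15 called). Cd163, Mrc1 and C1qc were not among the genes tested. The summed scaled intensity of the 17 markers was 13146, 14659 and 14637 at 24 h, against 32910.4, 35905 and 33422 at 6 h. The 3 sums of 24 h were all under the 3 sums of 6 h by more than 2-fold. Lyz2, lysozyme, carried the largest part of the sum, 6584, 7926 and 7731 at 24 h, against 17918, 19979 and 17656 at 6 h (-1.32 ± 0.09, adjusted p = 2.9e-06).

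Within the list the falls were uneven. C1qa read 31.8, 31.9 and 35.3 at 24 h, against 121, 157 and 167 at 6 h (-2.16 ± 0.11), while C1qb, another chain of the same complement protein, changed by -1.28 ± 0.09. Cd68, a lysosomal glycoprotein of macrophages, changed by -1.28 ± 0.07 and Csf1r, the receptor for the macrophage growth factor CSF1, by -0.93 ± 0.09. The smallest called fall was that of Cd14, a co-receptor for lipopolysaccharide (-0.32 ± 0.08, adjusted p = 0.0162), whose call was lost with the slide as a block. Cx3cr1, the fractalkine receptor, had overlapping groups and did not pass (-0.45 ± 0.19, adjusted p = 0.0985).

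Of 8 tested MHC class II genes (12 listed) 6 fell and 0 rose, with a median of -1.16, and with the slide as a block 5 fell, with a median of -1.10. Several of these genes are dim. Cd74, the invariant chain, read 14.8, 18.5 and 18.7 at 24 h, where 1 of 3 arrays was above background, against 82.5, 102 and 79.2 at 6 h. It was called lower (adjusted p = 6.43e-07), and no size is given for its fall, since most of its 24 h arrays were not above background. RT1-Da was above background on no array of either time, and no fold is given for it. Ctss, the protease cathepsin S that trims the invariant chain, was bright enough on all arrays and read 153, 191 and 168 at 24 h, against 555, 521 and 501 at 6 h (-1.63 ± 0.09, adjusted p = 6.43e-07). The list's median was -0.53 with normexp background correction and -0.41 with the authors' series matrix values. The macrophage marker sums given above moved with this list, and their part in it was not tested.

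Cytokines, chemokines and NF-kB targets split, with 8 of 31 tested genes higher and 8 lower (37 listed) and a median of 0.00, and with the slide as a block 5 were higher and 7 lower. Il18, an inflammasome-processed cytokine, read 42.8, 56.2 and 45.1 at 24 h, against 139, 152 and 126 at 6 h (-1.54 ± 0.12). Il1b, interleukin 1 beta, changed by -1.03 ± 0.13, and Tnf read 39.8, 35.5 and 47.3 at 24 h, against 71.6, 77.2 and 89.8 at 6 h (-0.96 ± 0.13, adjusted p = 0.000434). In contrast, besides Cxcl1, Ccl20, a chemokine for CCR6-bearing lymphocytes, read 2286, 2126 and 2315 at 24 h, against 1165, 978 and 1176 at 6 h (1.02 ± 0.12), and Ccl2, the monocyte chemokine MCP-1, read 4564, 6032 and 5558 at 24 h, against 2645, 2763 and 2862 at 6 h (0.96 ± 0.14). Nfkbia, the NF-kB inhibitor and target, changed by 0.56 ± 0.06. Il1rl1, the receptor of interleukin 33, had a change of 0.22 ± 0.09 that did not pass (adjusted p = 0.0904). The fall of the macrophage marker sums accompanied the falling members, and its part in them was not tested.

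Of 27 tested interferon-stimulated genes (34 listed) 4 rose and 5 fell, close to the shares over all genes (10.6% higher, 16.4% lower), with a median of -0.04 whose sign turned with the scaling. The fit with the slide as a block left 1 higher and 1 lower. Isg15 had the largest change among them, 292, 331 and 272 at 24 h, against 127, 114 and 143 at 6 h (1.22 ± 0.14, adjusted p = 0.000117). Irf7, the master transcription factor of the type I interferon response, moved the other way (-0.55 ± 0.11), and Gbp2, a guanylate-binding protein, changed by 0.37 ± 0.06. The calls of Irf7 and Gbp2 were lost with the slide as a block. Dhx58 was above background on no array of either time and is given no fold.

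Genes of the cardiac action potential fell more often than they rose. Among 27 tested ion channel and gap junction genes (29 listed) 13 fell and 2 rose, with a median of -0.31 (-0.25 with the slide as a block, 10 lower and 1 higher, and -0.14 with the authors' series matrix values). The cardiomyocyte markers moved with this list and with the calcium and fatty-acid lists (median -0.26), and their part in these lists was not tested. Pln and Ryr2 belong to both the marker list and the calcium list, so part of that joint movement is built in. Besides Kcnip2, Kcnj11, the pore of the ATP-sensitive potassium channel, changed by -0.50 ± 0.07. Gja1, connexin 43 of the ventricular gap junction, read 14025, 14591 and 13420.4 at 24 h, against 18338, 18455 and 17811 at 6 h (-0.38 ± 0.05, adjusted p = 0.000276). Kcnj2, which carries the inward rectifier current, was above background on 0 of 3 arrays at 24 h and on 1 of 3 at 6 h. It was called lower (adjusted p = 0.0108), but not with the slide as a block, and no fold is given for it.

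The 2 members that rose were Kcne1 and Atp1b1. Kcne1, the beta subunit of the slow delayed rectifier channel, read 39.1, 34.6 and 38.5 at 24 h, against 16.5, 24.9 and 20.3 at 6 h, where 1 of 3 arrays was above background. It was called higher (adjusted p = 0.00513), but not with the slide as a block, and no size is given for its rise. Atp1b1, the beta1 subunit of the sodium pump, changed by 0.49 ± 0.06.

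Calcium handling genes showed 11 of 22 tested genes lower and 0 higher (24 listed), with a median of -0.27 (-0.18 with scaling to the array median). The fit with the slide as a block left 5 lower, with a median of -0.28. Atp2a2, the calcium pump SERCA2 of the sarcoplasmic reticulum, read 40788, 39805 and 39165 at 24 h, against 57870.4, 57772 and 56389 at 6 h (-0.52 ± 0.06, adjusted p = 0.00022). Another probe of Atp2a2 gave a smaller fall (-0.26). Hrc, a calcium-binding protein of the sarcoplasmic reticulum, read 1421, 1483 and 1334 at 24 h, against 2429.8, 2357 and 2495 at 6 h (-0.78 ± 0.07), and S100a1, a calcium sensor that acts on SERCA2 and the ryanodine receptor, changed by -0.58 ± 0.06. All 3 were called with the slide as a block. Ryr2, the ryanodine receptor, changed by -0.34 ± 0.09 (adjusted p = 0.0151), and Slc8a1, the sodium-calcium exchanger, by -0.38 ± 0.07, and both lost their call with the slide as a block.

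Of 27 tested sarcomere genes (29 listed) 13 fell and 2 rose, with a median of -0.18. It was -0.09 with scaling to the array median and -0.15 with the slide as a block. Ttn, titin, read 7133, 6132 and 6683 at 24 h, against 10144, 10744 and 9207 at 6 h (-0.59 ± 0.10, adjusted p = 0.0018), and Myom1, an M-band protein, changed by -0.45 ± 0.08. Both myosin heavy chains fell. Myh6 (alpha) read 209617, 184259 and 201512 at 24 h, against 240122, 251667 and 221125 at 6 h (-0.26 ± 0.07), and Myh7 (beta) read 174166, 158819 and 175528 at 24 h, against 200355, 207341 and 198540.3 at 6 h (-0.25 ± 0.06). Ttn, Myh6 and Myh7 were not called with the slide as a block, and 5 sarcomere genes were. Of these sarcomere genes 10 are also cardiomyocyte markers, whose sums stand above. Cardiac transcription factors gave 10 lower and 0 higher of 24 (29 listed), with a median of -0.17. It was -0.07 with scaling to the array median and -0.16 with the slide as a block. The largest fall was that of Irx4, a ventricle-specific factor, with 2032, 2044 and 1923 at 24 h, against 2922, 3094 and 3026 at 6 h (-0.59 ± 0.08, adjusted p = 0.000289).

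Receptors and effectors of angiotensin, endothelin and adrenergic signals fell in 13 of 24 tested genes and rose in 2 (32 listed), with a median of -0.30 (-0.24 with the slide as a block, 6 lower). Ednra, the endothelin A receptor, read 1105, 1155 and 1031 at 24 h, against 1998, 2221 and 1949 at 6 h (-0.91 ± 0.07, adjusted p = 6.3e-06). Corin, the protease that activates the precursor of atrial natriuretic peptide, read 682, 586 and 640.0 at 24 h, against 1216, 1165 and 1181 at 6 h (-0.90 ± 0.08, adjusted p = 1.71e-05). Agtr1a, the angiotensin II receptor, changed by -0.46 ± 0.06, Adcy5, a cardiac adenylyl cyclase, by -0.62 ± 0.08 and Adrb1, the beta1-adrenergic receptor, by -0.36 ± 0.11. The ligand gene Edn1, which encodes endothelin 1, was 1 of the 2 that rose (0.23 ± 0.06, adjusted p = 0.0215). Adrb1 and Edn1 were not called with the slide as a block.

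Among genes of mitochondrial energy metabolism, called members fell in 3 lists with the exception of 1 gene. Of 37 tested fatty-acid oxidation genes (38 listed) 26 fell and 0 rose, with a median of -0.27 (-0.18 with scaling to the array median), and 13 were called with the slide as a block, with a median of -0.22. Cd36, the fatty-acid transporter of the cell membrane, read 13327, 13955 and 13055 at 24 h, against 18339.9, 18274 and 18700.0 at 6 h (-0.46 ± 0.04, adjusted p = 3.95e-05). Decr1, an enzyme for unsaturated fatty acids, changed by -0.62 ± 0.08, and Cpt1b, the muscle carnitine palmitoyltransferase, by -0.27 ± 0.07. Cpt1b was not called with the slide as a block. The nuclear receptor Ppara and its coactivator Ppargc1a, which switch these genes on, changed by -0.48 ± 0.07 and -0.50 ± 0.05. Fabp4, a fatty-acid binding protein that macrophages, endothelium and fat cells also express, read 119, 137 and 156 at 24 h, against 330.5, 393 and 396 at 6 h (-1.44 ± 0.09), and the fall of the macrophage marker sums stands beside it, with its part not tested.

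In the tricarboxylic acid cycle 10 of 23 tested genes fell and 1 rose, with a median of -0.16, and with the slide as a block 3 fell and 1 rose, with a median of -0.13. The member that rose was Pc, pyruvate carboxylase, which refills the cycle (0.36 ± 0.05). Scaling to the array median gave a median of -0.06 for this list. In oxidative phosphorylation 17 of 44 tested genes fell and 0 rose (45 listed), with a median of -0.14 and 43 of 44 changes negative. Within slide 2 the block fit called 4 lower, the median was -0.10 and 39 of 44 changes were negative, and scaling to the array median gave a median of -0.05. Cox8b, a muscle subunit of cytochrome c oxidase, changed by -0.47 ± 0.07 and Atp5f1b, the beta subunit of ATP synthase, by -0.37 ± 0.07, the call of Atp5f1b being lost with the slide as a block. Glycolysis and hypoxia-response genes had 5 higher and 8 lower of 35 (36 listed), against 10.6% of all genes called higher and 16.4% lower. Their median was 0.01 and turned sign with the scaling, and it was -0.03 with the slide as a block. There Aldoc, aldolase C, read 8761, 10043 and 8563 at 24 h, against 14296, 14872 and 16301 at 6 h (-0.73 ± 0.08), and Ero1a, an endoplasmic reticulum oxidase induced by hypoxia, changed by 0.48 ± 0.04.

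Extracellular matrix genes fell in 20 of 36 tested genes and rose in 0 (40 listed), with a median of -0.24, and 13 fell with the slide as a block, with a median of -0.33. Eln, elastin, read 3633, 3340.3 and 3996 at 24 h, against 5849.8, 6057 and 6807 at 6 h (-0.77 ± 0.08, adjusted p = 5.64e-05). Lama2, a laminin chain of muscle basement membrane, changed by -0.63 ± 0.08, Col6a2, a collagen VI chain, by -0.57 ± 0.06 and Col3a1 by -0.47 ± 0.08. Col1a1, a chain of collagen I, changed by -0.20 ± 0.07 and lost its call with the slide as a block. Fibroblast markers, 5 of which are matrix genes of this list, fell in 9 of 14 and rose in 1, and with the slide as a block 6 fell and 0 rose. Their summed scaled intensity was 226506, 202616 and 228125 at 24 h, against 250933, 277433 and 257756 at 6 h, and its part in the matrix result was not tested. Postn, periostin, read 1184, 1188 and 1123 at 24 h, against 2077, 2096 and 1949 at 6 h (-0.81 ± 0.07, adjusted p = 2.11e-05).

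Counts for markers of the other cell types stand against 10.6% of all genes called higher and 16.4% called lower. Endothelial markers had 7 lower and 1 higher of 12, with a median of -0.28, and smooth muscle and pericyte markers 6 lower and 2 higher of 13, with a median of -0.23. Each of these lists had 1 lower and 1 higher call with the slide as a block. Epicardial and mesothelial markers had 4 higher and 3 lower of 11, with a median of 0.22 that was 0.02 with the slide as a block. Neural and Schwann cell markers had 1 higher and 2 lower of 9 (0 and 0), and red blood cell markers 0 higher and 1 lower of 3 (0 and 1).

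Called members were mostly lower among growth factors and their receptors, with 10 lower and 2 higher of 29 (6 and 1 with the slide as a block), among matrix proteases and their inhibitors, with 7 lower and 3 higher of 19 (4 and 1), and among YAP/TAZ targets, with 4 lower and 0 higher of 16 (1 and 0). They were mostly higher among stathmin and tubulin genes, with 8 higher and 1 lower of 22 (3 and 0), and among NRF2 genes, with 8 higher and 2 lower of 30 (2 and 1). Of all genes 16.4% were called lower and 10.6% higher. The medians of YAP/TAZ targets (-0.08) and of matrix proteases (-0.06) turned sign with the scaling. Those of growth factors (-0.13), stathmin and tubulin genes (0.10) and NRF2 genes (0.07) kept their sign. Hmox1, heme oxygenase 1, an NRF2 target, read 19883, 24816 and 16808 at 24 h, against 12863, 15162 and 12870.5 at 6 h. Its change was 0.57 ± 0.13 (adjusted p = 0.00797), and it lost its call with the slide as a block.

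Genes of the unfolded protein and integrated stress response had 6 higher and 0 lower of 36 (1 and 0 with the slide as a block), heat-shock genes 4 higher and 1 lower of 26 (1 and 0) and cell cycle genes 7 higher and 1 lower of 49 (0 and 0). Calls ran both ways for MAPK phosphatases and feedback genes, with 8 higher and 7 lower of 19 (2 and 5), and for the circadian clock, with 4 higher and 3 lower of 18 (2 and 0). They did so too for actin cytoskeleton genes, with 5 higher and 4 lower of 30. TGF-beta and BMP signalling had 6 higher and 5 lower of 27, and protein degradation and autophagy 8 higher and 6 lower of 38. With the slide as a block these lists had medians of -0.001, -0.06 and -0.02. Of all genes 10.6% were called higher and 16.4% lower. Medians were 0.06 for the unfolded protein list, 0.02 for heat-shock genes and 0.05 for cell cycle genes. The median of every list in this paragraph changed sign in at least 1 of the settings run.

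Levels in unstretched cells and at 2 h were set beside those at 6 and 24 h. Both comparisons with the control share the 3 control arrays, and they share their stretched arrays with the comparison above, so the values are set side by side only. Against the control 6261 genes were called at 24 h (50.5%) and 2384 at 6 h (19.2%). For Stmn4 the mean scaled intensity was 55.8 ± 12.6 in controls, 59.3 ± 4.03 at 2 h, 96.6 ± 31.5 at 6 h and 461 ± 10.2 at 24 h (SD, n = 3 each). For Nppb it was 51423 ± 3981 in controls, 70075 ± 3905 at 2 h, 86467 ± 2345 at 6 h and 101784 ± 9477 at 24 h (SD, n = 3 each), so that most of the difference from the control was present by 6 h. Tnf was at 219 ± 20.0 in controls, 152 ± 23.0 at 2 h, 79.5 ± 9.29 at 6 h and 40.9 ± 5.96 at 24 h (SD, n = 3 each) and was lower at each later time. Adgre1 was at 454 ± 17.5 in controls, 684 ± 37.3 at 2 h, 409.7 ± 42.4 at 6 h and 76.6 ± 6.77 at 24 h (SD, n = 3 each), highest at 2 h, and Acta1 was at 10636 ± 691 in controls, 13103 ± 911 at 2 h, 16140.0 ± 905 at 6 h and 13235 ± 366 at 24 h (SD, n = 3 each), highest at 6 h.

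**Figure D4:**
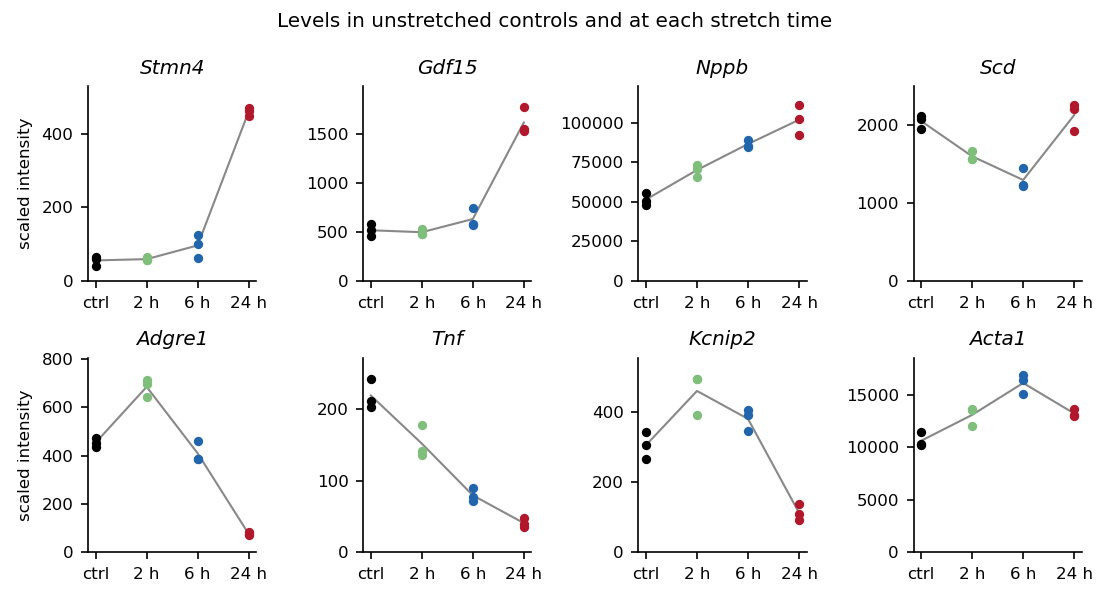
Scaled intensity (vertical axes from 0) is shown for 8 genes on the 3 arrays each of unstretched controls and of 2, 6 and 24 h of stretch, with a grey line through the group means. Stmn4 and Gdf15 are highest at 24 h, Scd is lowest at 6 h, and Adgre1 is lowest at 24 h.

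The named genes were also set against the values within slide 2. Of the 180 named genes 177 were called over all arrays, and 111 of these were called with the slide as a block.

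**Figure D5:**
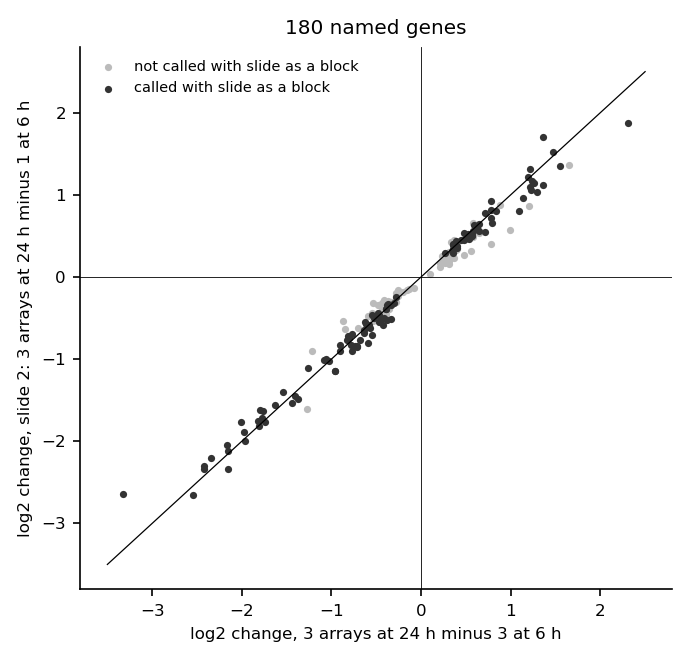
The log2 change of the 180 named genes from all arrays (horizontal axis) is plotted against the change on slide 2 alone, 3 arrays of 24 h minus the 1 array of 6 h (vertical axis), with the line of equality; genes called with the slide as a block are black. Both values share the 24 h arrays and 1 array of 6 h, and many genes were chosen because their groups do not overlap, so a shared sign is fixed by the choice; of the 177 called genes 111 are black.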

How the data were processed

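The values are intensity, as deposited in the scanner files, for 12 arrays read with Agilent Feature Extraction 11.0.1.1 per the file headers (the submitters' processing notes name 10.7.3.1). The files place probes on rat build rn4. The processed signal is, per the file headers, background-subtracted and not scaled between arrays. The deposited series matrix, an intensity table for 28902 probes, was used only as an alternative; its scaling between arrays is not stated, and its ranks followed the scanner signal (rank correlation at least 0.9988). The spot flags, other values of 0 or 1 per the file headers, marked outliers and background.

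Outlier spots were left out, log2 values were taken, the 75th percentile of each array was subtracted, and probes that cleared background on every array of some group were kept (18649 of 30367). Each gene took its brightest probe, named through RefSeq by accession, symbol or synonym or kept as in the file. A model with 4 group means was fitted over the 12 arrays with limma 3.58.1 (lmFit and eBayes, 8 residual degrees of freedom) in R 4.3.3, and p-values, two-sided, were adjusted by Benjamini-Hochberg over all 12402 genes. The intensity values in the text are these log2 values turned back at a common 75th percentile of 1407. A bound compares the bright group with the lowest signal above background. The number of arrays limits the precision. The code was tested on simulated data.

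The comparison and the 40 gene lists (1068 genes, 960 tested) were chosen with earlier results of these data known. Named genes were the 12 largest rises and falls without overlap, 3 each way with 1 group below background, up to 4 called members per list and 16 set genes; others named from the lists were chosen after their values were seen. List counts are descriptions, with no test of a list. Some genes are not reported here.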

Additional observations from a re-analysis of the deposited data

How the results depend on the processing

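Against 3351 called genes, scaling to the spike-in controls gave 898, the slide as a block 1075 and slide 2 alone 346; 1057 of the 1075 and 333 of the 346 were among the 3351. The slide as a random block (consensus correlation -0.051) gave 3659. Leaving out 1 array at a time gave between 2308 (without 6 h replicate 2) and 2967 genes. Quantile normalization gave 3283, the array median 4295, normexp 2850, the series matrix 3392, no filter on dim probes 2558 and the mean of the probes of a gene 3353. Replicate numbers are shared by the groups but did not pair the samples (correlations of deviations -0.0799, -0.0366 and 0.0787 for numbers 1, 2 and 3), and the fit with the replicate number as a block called 3152. Of genes called in the first fit, 10 had the opposite sign with normexp, 5 in the series matrix, 8 with the mean of probes and 1 without the filter. Of the named genes, Spdef turned to -0.35 without the filter (adjusted p = 0.523), Dusp4 to -0.0081 with normexp (adjusted p = 0.966) and Ankrd1, not called at first, to 0.021 with the array median (adjusted p = 0.818). Without the filter another probe stood for Spdef. Scaling to the array median moved the change of every gene, Ankrd1 included, by the same amount. For Dusp4 the cause was not tested. Of the 180 named genes 87 lost the call with spike-in scaling, 66 with the slide as a block, 125 on slide 2 alone and 19 with normexp. Of 39 list medians, 25 kept their sign under all settings run and 14 turned in at least 1. Genes near background carry the least certain changes, and 64 of 570 called genes with several probes (11.2%) had another probe of the opposite sign. Values of other probes are printed for a few genes only.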

Other observations

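Probes without a gene name in the sources used here were tested apart. Of 3812 such probes above background 370 were called, 107 higher at 24 h and 263 lower. Probe A_64_P006354, on rn4 chromosome 13, had the largest rise among those above background on all 6 arrays without overlap, with a scaled intensity of 339.6, 409 and 409 at 24 h, against 165, 192 and 214 at 6 h, a log2 change of 1.02 ± 0.14 (adjusted p = 0.0019). Probe A_64_P216938, on chromosome 4, had the largest fall, with 35.6, 44.3 and 35.8 at 24 h, against 115, 121 and 98.7 at 6 h, a log2 change of -1.54 ± 0.15 (adjusted p = 0.000318).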
